A study of Mus musculus with 10 samples.

Results

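The RNA levels of 10 genes of heme breakdown and iron handling were followed in RAW264.7 cells, a mouse macrophage line, stimulated with lipopolysaccharide (LPS) and given 9-keto-hexadec-7-enoic acid with an E double bond (**1**), a fatty acid from cyanobacteria. The genes were chosen by their symbols, matched to the Ensembl identifiers of the count table. They are Hmox1 and Hmox2, Blvra and Blvrb, Fth1 and Ftl1, Slc40a1, Tfrc, and Slc11a1 and Slc11a2, 10 of the 43432 genes listed. All 10 passed the filter on low counts and were among the 14172 genes tested. The lowest count of any of them in a library was 862, for Slc40a1.

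The RNA-seq comprised 10 libraries, 2 for each of 5 conditions. These were solvent alone (0.5% DMSO, termed DMSO), the same solvent plus 1 µg/mL LPS (termed DMSO + LPS), and **1** at 32, 10 or 3.2 µM, each together with the same LPS concentration. No condition held **1** without LPS, and the solvent percentage is labelled for the solvent groups only. Cells grew in 6-well plates, received **1** or solvent 1 h before LPS, and gave RNA after 12 h. The labels number the libraries of each condition as biological replicates 1 and 2 but do not say whether these came from separate cultures, so the p-values measure the spread between these samples, which may be technical.

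Heme is opened by heme oxygenase to biliverdin, carbon monoxide and ferrous iron, and biliverdin reductase turns biliverdin into bilirubin. Macrophages do much of this work in the body, since they break down aged red cells. The freed iron is stored in the ferritin shell, built of heavy and light chains, or leaves the cell through ferroportin, while transferrin receptor and the divalent metal transporters bring iron in or move it out of endosomes and phagosomes.

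Iron-regulatory proteins bind a hairpin, the iron-responsive element, in the messages of several of these genes. In a 5′ UTR the bound hairpin blocks translation, and in the 3′ UTR of the Tfrc message it shields the RNA from decay. The counts measure RNA and not translation. The element was searched for in GENCODE M21 transcripts (GRCm38) as a bulged C, 5 bases, the loop CAGTGN and 5 bases pairing with the first 5, G-T pairs allowed. It is shown because it divides the 10 genes. Since the element is known from several of these genes, matches among them were to be foreseen and are no independent result. Capitals mark the bulged C and the 6 bases of the loop.
Fth1, 5′ UTR, chr19:9982732-9982760, plus strand: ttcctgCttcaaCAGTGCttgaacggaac
Ftl1, 5′ UTR, chr7:45459779-45459807, minus strand: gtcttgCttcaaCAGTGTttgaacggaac
Slc40a1, 5′ UTR, chr1:45925465-45925493, minus strand: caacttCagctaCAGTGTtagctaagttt
Tfrc, 3′ UTR, chr16:32631219-32631247, plus strand: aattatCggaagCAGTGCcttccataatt
Tfrc, 3′ UTR, chr16:32631598-32631626, plus strand: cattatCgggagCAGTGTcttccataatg
Tfrc, 3′ UTR, chr16:32631663-32631691, plus strand: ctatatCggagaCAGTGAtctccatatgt
Tfrc, 3′ UTR, chr16:32631710-32631738, plus strand: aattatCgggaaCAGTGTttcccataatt

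The 2 ferritin genes and Slc40a1 thus held 1 match each near the start of the message, and Tfrc held 4 in its 3′ UTR. The other 6 genes held no match to this strict pattern, Slc11a2 included, which does not show that they lack the element. Among tested genes with an annotated UTR, 25 of 11857 (0.211%) had such a match in a 5′ UTR and 106 of 11993 (0.884%) in a 3′ UTR. A match is a description of the letters, and a hairpin that departs from them would be missed.

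Library totals lay between 45966803 and 58976377 counts, and the 10 genes took 1.09% to 2.03% of them, mostly the ferritin genes. Levels are given in CPM, counts relative to the library total after TMM scaling. A gene was called when it differed at least 1.5-fold with a Benjamini-Hochberg adjusted p below 0.05 in edgeR's quasi-likelihood test over all 10 libraries. With 2 libraries against 2, an exact permutation test could not go below p = 0.333. Of 8 macrophage markers all were tested, and with LPS 3 were called higher and 3 lower. Cd68, among the 2 not called, lay between 599 and 723 CPM in the 10 libraries, while the T cell gene Cd3e had 0 counts throughout. Replicate 1 at 10 µM stood apart with 596 counts over 9 markers of other cell types, 451 of them from the epithelial gene Epcam. Replicate 1 at 3.2 µM had 113 counts in these markers and the other 8 libraries 3 to 20. Replicate 2 at 32 µM had 2.46% of its counts in Gm42418, a gene that overlaps ribosomal RNA, against 0.0419% to 0.207% in the other libraries. Without replicate 1 at 3.2 µM or at 10 µM 0 members were called against DMSO + LPS, and without replicate 2 at 32 µM 1 was called against DMSO + LPS and 6 against DMSO, the same numbers as with them. Values without the 10 and 32 µM libraries stand beside the main member results of those doses.

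Compared per exon length in DMSO + LPS, the light-chain gene Ftl1 had the highest level of the 10, 4768 ± 170.04 CPM per kb (SD, n = 2). The heavy-chain gene Fth1 followed at 1961 ± 103 and Hmox1 at 715 ± 8.84 CPM per kb. In CPM, without the division by length, Fth1 had the higher mean, 6803 against 6390 for Ftl1. The order of the 2 ferritin genes thus rests on the exon lengths used, 3469 nt for Fth1 and 1340 nt for Ftl1. With the longest transcripts they stood at 3299 (Fth1) and 6601 (Ftl1) CPM per kb. Slc11a1 stood at 201 ± 1.65 and Tfrc at 97.5 ± 1.06 CPM per kb. Slc11a2 (56.7 ± 0.623), Blvrb (52.3 ± 2.74) and Blvra (46.5 ± 1.34) lay near each other. Their order turned when the longest transcript was used in place of all exons, with Blvrb then at 96.8, Slc11a2 at 81.6 and Blvra at 77.9 CPM per kb. Hmox2 was lower, at 21.4 ± 1.25 CPM per kb, and the ferroportin gene Slc40a1 lowest, at 2.22 ± 0.128. The constitutive heme oxygenase was therefore far below the inducible one, and the exporter far below the storage genes.

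**Figure D1:**
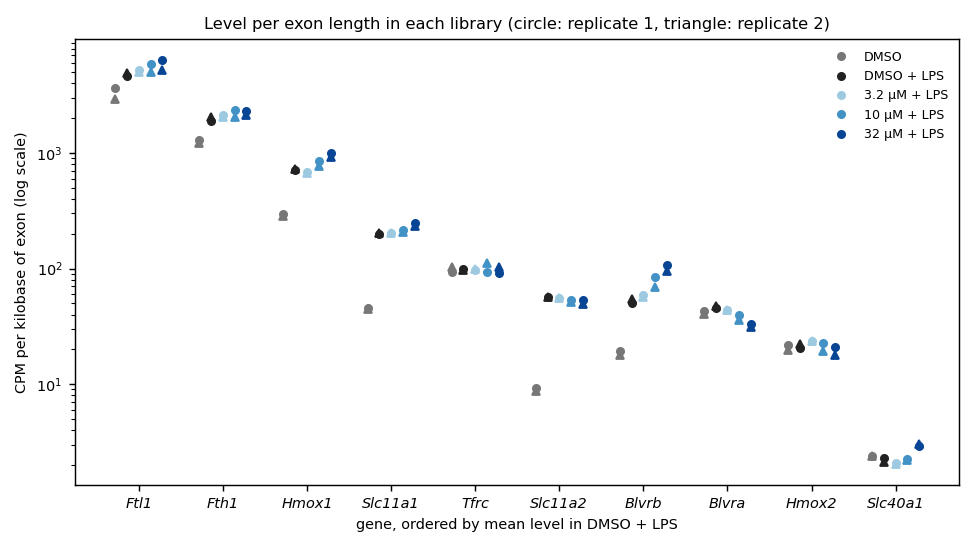
Level of each gene in each library in CPM per kilobase of exon, on a log axis, with genes ordered by their mean in DMSO + LPS, circles for replicate 1 and triangles for replicate 2. The levels run from 2.22 CPM per kb for Slc40a1 to 4768 for Ftl1 in DMSO + LPS, and the grey DMSO points lie below the others for Slc11a2, Slc11a1, Blvrb, Hmox1, Fth1 and Ftl1.

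The first comparison asked what LPS alone did to these genes. Slc11a2, Slc11a1, Blvrb, Hmox1 and Fth1 rose. Thus 5 of 10 were called higher and 0 lower, where 14.6% of all genes tested were called higher, 13.6% lower and 28.2% in either direction. At an adjusted p below 0.05 without the fold cutoff there were 6, beside 50.9% of all genes tested. The median log2 fold change of the 10 was 0.59, beside 0.00 over all genes tested. In bulk RNA a lower level in every cell and fewer cells expressing a gene cannot be told apart.

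Hmox1 encodes the inducible heme oxygenase HO-1. Its level was 521 and 500.0 CPM in the DMSO libraries and 1241 and 1263 CPM in the DMSO + LPS libraries. The groups were far apart, a 2.45-fold rise (log2 1.29 ± 0.056 SE, adjusted p = 5.20e-07). Hmox2, the constitutive enzyme, gave 48.0 and 43.9 CPM without LPS and 45.6 and 49.5 CPM with it. Here the groups overlapped, and the log2 fold change of 0.05 had a 95% interval of −0.19 to 0.28 and turned to −0.16 when libraries were scaled by their totals. Hmox2 shares 892 nt of exon with Cdip1 on the opposite strand, and since use of the strand in counting is not given in the sources used here, reads of the pair may be mixed.

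Of the 2 biliverdin reductase genes, 1 was called. Blvrb, which also reduces flavins, rose 2.80-fold, from 54.3 and 49.8 CPM to 140.2 and 151 CPM (log2 1.48 ± 0.109 SE, adjusted p = 1.13e-05). Blvra, the main reductase of the biliverdin formed from heme in adults, stood at 105 and 98.8 CPM without LPS and at 111 and 116 CPM with it. Its groups did not overlap, but the log2 fold change of 0.16 did not pass (adjusted p = 0.0653) and turned to −0.052 with scaling by library totals. Whether the 2 genes responded differently was not tested.

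Both ferritin genes were higher with LPS, by amounts close to the fold cutoff. Fth1, whose subunit oxidizes iron as it enters the shell, rose from 4495 and 4227 CPM to 6550.5 and 7056 CPM, 1.56-fold (log2 0.64 ± 0.076 SE, adjusted p = 0.000199). The call was lost in 3 of 12 alternatives, at a log2 fold change of 0.43 with scaling by library totals, 0.53 with the short-transcript score in the fit and 0.58 without replicate 2 of DMSO. That score is, per library, the median relative log2 CPM of genes whose longest transcript is under 1000 nt, with ribosomal protein genes and the members left out. Ftl1, whose subunit helps the mineral core form, went from 4915 and 3922 CPM to 6229 and 6551 CPM, 1.45-fold (log2 0.53 ± 0.132 SE). It passed the p threshold (adjusted p = 0.01001) but not the fold cutoff. It was called without replicate 1 of DMSO, while the adjusted p was 0.0739 with scaling by library totals, 0.0738 without replicate 2 of DMSO and 0.0595 without replicate 2 of DMSO + LPS. The Ftl1 counts are uncertain in part: 355 nt of its exons lie opposite Gm10252, 109 nt coincide with the miRNA gene Gm22133, and the pseudogene Ftl1-ps1 held counts equal to 0.624% to 1.52% of those of Ftl1.

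With LPS, Slc40a1 and Tfrc, which take iron across the cell surface, were not called. Slc40a1, the iron exporter ferroportin, gave 21.7 and 21.6 CPM without LPS and 20.8 and 19.2 CPM with it. The LPS libraries were both lower, by a log2 fold change of −0.11 that did not pass (adjusted p = 0.141). With scaling by library totals it was −0.32 (adjusted p = 0.00166), under the fold cutoff. For Tfrc, the receptor that takes up transferrin-bound iron, the DMSO libraries of 582 and 643 CPM enclosed the DMSO + LPS libraries of 608 and 598 CPM. Its log2 fold change of −0.02 had a 95% interval of −0.23 to 0.19, and with the short-transcript score in the fit it was 0.11 (adjusted p = 0.0140).

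The largest fold changes of the 10 with LPS belonged to the transporters that carry divalent metals across endosome and phagosome membranes. Slc11a2 (DMT1), which moves iron out of endosomes, rose 6.31-fold, from 58.4 and 55.7 CPM to 363 and 357 CPM (log2 2.66 ± 0.054 SE, adjusted p = 1.10e-08). Slc11a1 (NRAMP1), which pumps iron and manganese out of phagosomes, rose 4.50-fold, from 167 and 164 CPM to 742 and 751 CPM (log2 2.17 ± 0.047 SE, adjusted p = 1.58e-08). The counts do not show whether these cells made a working protein from either message. Exons of Slc11a2 share 402 nt with Gm5475 on the opposite strand. Both rises were called under each of the 12 alternative analyses of that comparison.

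**Figure D2:**
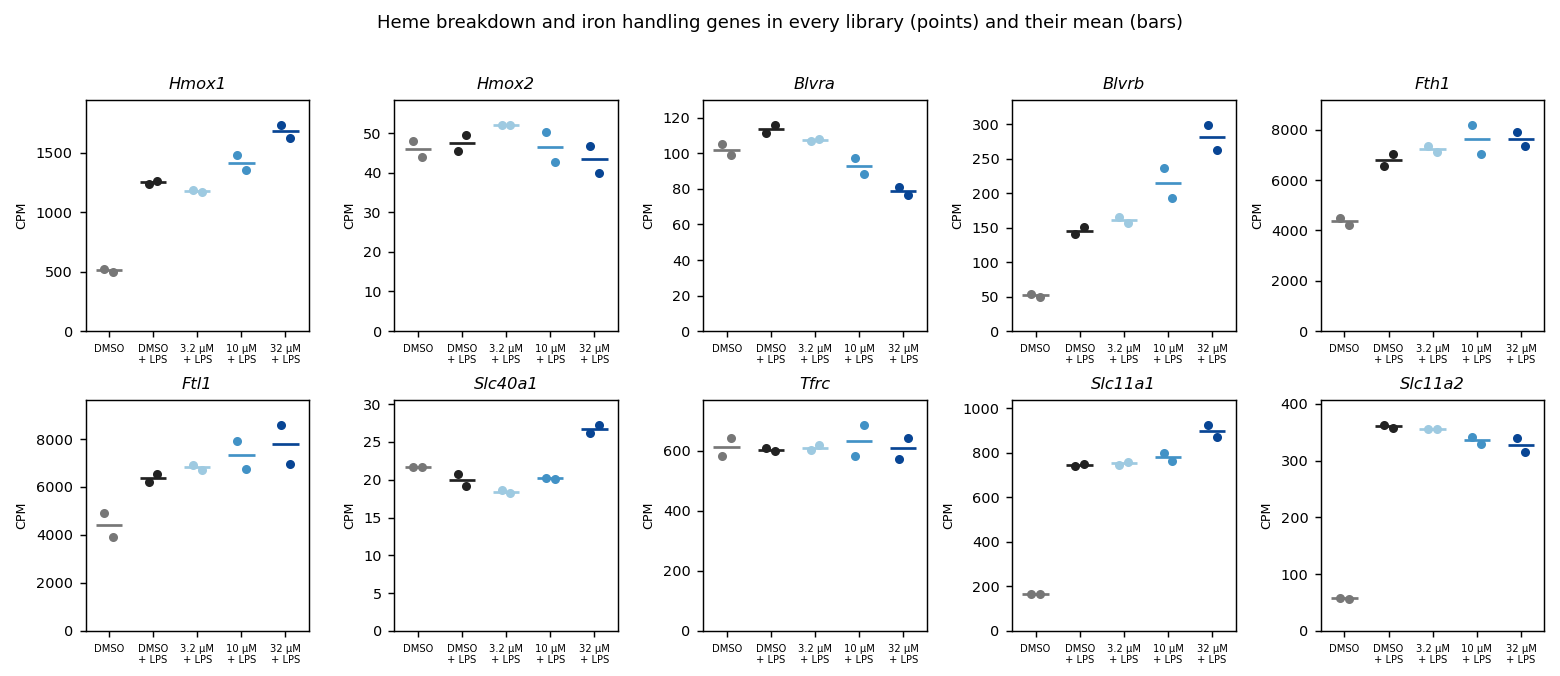
CPM of the 10 genes in each library (points, 2 per condition) with the mean of the condition as a bar, each panel on its own axis from 0. Blvrb and Hmox1 are lowest in DMSO and highest at 32 µM, Blvra is lowest at 32 µM (81.2 and 76.7 CPM), Slc40a1 is highest at 32 µM (26.2 and 27.3 CPM), and Slc11a2 lies between 316 and 363 CPM in all LPS libraries.

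The comparisons of **1** with DMSO + LPS asked which of these levels the fatty acid changed in stimulated cells. All doses share the same DMSO + LPS libraries. At 32 µM, 1 of the 10 genes was called, Blvrb, which rose, where 1.27% of all genes tested were called higher and 2.91% lower (4.18% in all). Without the fold cutoff, 4 were higher (Blvrb, Hmox1, Slc40a1 and Slc11a1) and 1 lower (Blvra) at an adjusted p below 0.05, beside 4.06% and 5.72% of all genes tested (9.78% in all). The median log2 fold change of the 10 was 0.22, beside 0.01 over all genes.

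Blvrb gave 299 and 263 CPM at 32 µM, 236 and 193 CPM at 10 µM, and 166 and 157 CPM at 3.2 µM, against 140.2 and 151 CPM in DMSO + LPS. The libraries of each dose lay above those of the dose below. Of all genes tested, 24.4% lay so at 3.2 µM above DMSO + LPS. The shares were 17.4% for 10 µM above 3.2 µM and 16.2% for 32 µM above 10 µM, each step taken alone. The rise at 32 µM was 1.93-fold (log2 0.95 ± 0.107 SE, adjusted p = 0.000941), and it remained at 1.04 on the log2 scale without replicate 2 at 32 µM (adjusted p = 0.00293). The 10 µM value of 0.56 on that scale (1.47-fold, adjusted p = 0.0367) fell short of the fold cutoff. It was 0.40 (adjusted p = 0.108) without replicate 1 at 10 µM, the library with the Epcam counts, and 0.68 (adjusted p = 0.0164), a call, without replicate 2. The part of the Epcam counts in the result was not tested. At 3.2 µM the log2 fold change was 0.15 ± 0.106 SE.

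Blvra went the other way. It gave 81.2 and 76.7 CPM at 32 µM and 97.1 and 88.3 CPM at 10 µM, all below the 111 and 116 CPM of DMSO + LPS. The log2 fold change at 32 µM was −0.53 ± 0.061 SE (adjusted p = 0.00114), a 1.44-fold decrease under the fold cutoff, and it was −0.49 without replicate 2 at 32 µM (adjusted p = 0.0128). At 10 µM it was −0.29 (adjusted p = 0.0524), and −0.37 (adjusted p = 0.0450) without replicate 1 of that dose. The libraries at 3.2 µM, 107 and 108 CPM, were just below DMSO + LPS, by −0.08 on the log2 scale. The 2 reductase genes thus had log2 fold changes of opposite sign at 32 µM, each with an adjusted p below 0.05.

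Hmox1 gave 1735 and 1629 CPM at 32 µM and 1485 and 1354 CPM at 10 µM, above the 1241 and 1263 CPM of DMSO + LPS. At 3.2 µM, 1187 and 1169.9 CPM, it lay slightly below. The difference at 32 µM was 1.34-fold (log2 0.43 ± 0.055 SE, adjusted p = 0.00203), under the fold cutoff, with 0.47 on the log2 scale without replicate 2 of that dose. For 10 µM the value of 0.18 did not pass after adjustment (adjusted p = 0.193) and was 0.11 without replicate 1 of that dose, and at 3.2 µM it was −0.09. With the short-transcript score in the fit the 10 µM value was 0.17 (adjusted p = 0.000808). With LPS alone the same gene had gained 1.29 on this scale. Hmox2 gave 46.8 and 40.0 CPM at 32 µM, overlapping DMSO + LPS, and its log2 fold change of −0.13 had a 95% interval of −0.37 to 0.11.

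Slc40a1 gave 26.2 and 27.3 CPM at 32 µM, the highest of the 10 libraries. The libraries at 10 µM, 20.3 and 20.0 CPM, lay within the range of DMSO + LPS, and those at 3.2 µM, 18.6 and 18.2 CPM, below it. At 32 µM the log2 fold change was 0.42 ± 0.058 SE (1.34-fold, adjusted p = 0.00282), under the fold cutoff, and 0.39 without replicate 2 of that dose (adjusted p = 0.0251). At 10 µM it was 0.01 and at 3.2 µM −0.12. Slc40a1 was also the gene of the set that passed the p threshold between 32 and 10 µM (log2 0.41, adjusted p = 0.00953), where 2.76% of all genes did, although the adjusted p was 0.0507 without replicate 1 at 10 µM, 0.0781 without replicate 2 at 32 µM and 0.234 in edgeR on those 4 libraries.

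Neither metal transporter was called with **1**. Slc11a1 gave 926 and 872 CPM at 32 µM against 742 and 751 CPM in DMSO + LPS, 1.20-fold higher (log2 0.27 ± 0.045 SE, adjusted p = 0.00757). The adjusted p became 0.0724 or 0.0588 without replicate 1 or 2 of DMSO + LPS, 0.0581 in edgeR on the 4 libraries compared, and 0.0138 without replicate 2 at 32 µM. Slc11a2 gave 339 and 316 CPM at 32 µM, below the 363 and 357 CPM of DMSO + LPS, by −0.14 on the log2 scale (adjusted p = 0.157), and by −0.13 (adjusted p = 0.00566) in the fit with the short-transcript score. The 10 µM libraries of Slc11a1, 798 and 762 CPM, lay between those groups. Those of Slc11a2, 342 and 329 CPM, overlapped 32 µM and lay below DMSO + LPS.

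In the fit of all 10 libraries, no change of the ferritin genes or Tfrc with **1** passed the test. Fth1 gave 7923 and 7352 CPM at 32 µM, above DMSO + LPS by 0.17 on the log2 scale, with a 95% interval of −0.01 to 0.34. Ftl1 gave 8594 and 6961 CPM, and its log2 fold change of 0.28 had an interval of −0.02 to 0.59, so that a 1.5-fold rise lay just inside it. The replicates differed along transcript length, with a short-transcript score of 0.16 and −0.19 on the log2 scale at 32 µM, and the short Ftl1 message (968 nt) was higher in the library with the higher score. With that score in the fit, an alternative, the Ftl1 log2 fold change was 0.33 at 32 µM (adjusted p = 3.69e-07) and 0.17 at 10 µM (adjusted p = 0.000414), still under the fold cutoff. Fth1 then gave 0.19 at 32 µM (adjusted p = 0.000147) and 0.15 at 10 µM (adjusted p = 0.00290), also under it. Without replicate 2 at 32 µM the values were 0.43 for Ftl1 and 0.22 for Fth1. Tfrc gave 571 and 643 CPM at 32 µM, and its log2 fold change of 0.01 had an interval of −0.20 to 0.22.

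At 10 µM 0 of the 10 genes were called, where 0.861% of all genes were, and 1 (Blvrb) passed the adjusted p alone, where 2.67% did. With edgeR, 3 of them (Hmox1, Blvra and Blvrb) had an unadjusted p below 0.05, as did 1709 of the 14172 genes tested, and DESeq2 called 0 of the 10 and 177 genes in all. At 3.2 µM 0 of the 10 and 0.00% of all genes were called, 0 of the 10 and 600 of all genes had an unadjusted p below 0.05, and DESeq2 called 0 of the 10 and 8 genes in all. Between 32 and 10 µM 0 of the 10 were called (1.32% of all genes), with 5 at an unadjusted p below 0.05 (1777 of all genes) and 0 called by DESeq2 (222 of all genes). Between 10 and 3.2 µM 0 were called (0.254% of all genes), with 3 at an unadjusted p below 0.05 (1187 of all genes) and 0 called by DESeq2 (54 of all genes). These counts over all genes moved with the libraries and the fit. With the short-transcript score in the fit, 232 genes were called at 10 µM and 6 at 3.2 µM. In that fit 295 were called between 32 and 10 µM and 111 between 10 and 3.2 µM. At 10 µM the 122 genes called became 52 or 59 without replicate 1 or 2 of DMSO + LPS, 227 without replicate 2 at 10 µM and 41 in edgeR on the 4 libraries compared. At 3.2 µM the 0 genes became 66 in that last fit. Between 32 and 10 µM 187 became 5 there. Between 10 and 3.2 µM 36 became 0 there, 6 or 5 without replicate 1 or 2 at 3.2 µM, and 22 or 66 without replicate 1 or 2 at 10 µM.

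**Figure D3:**
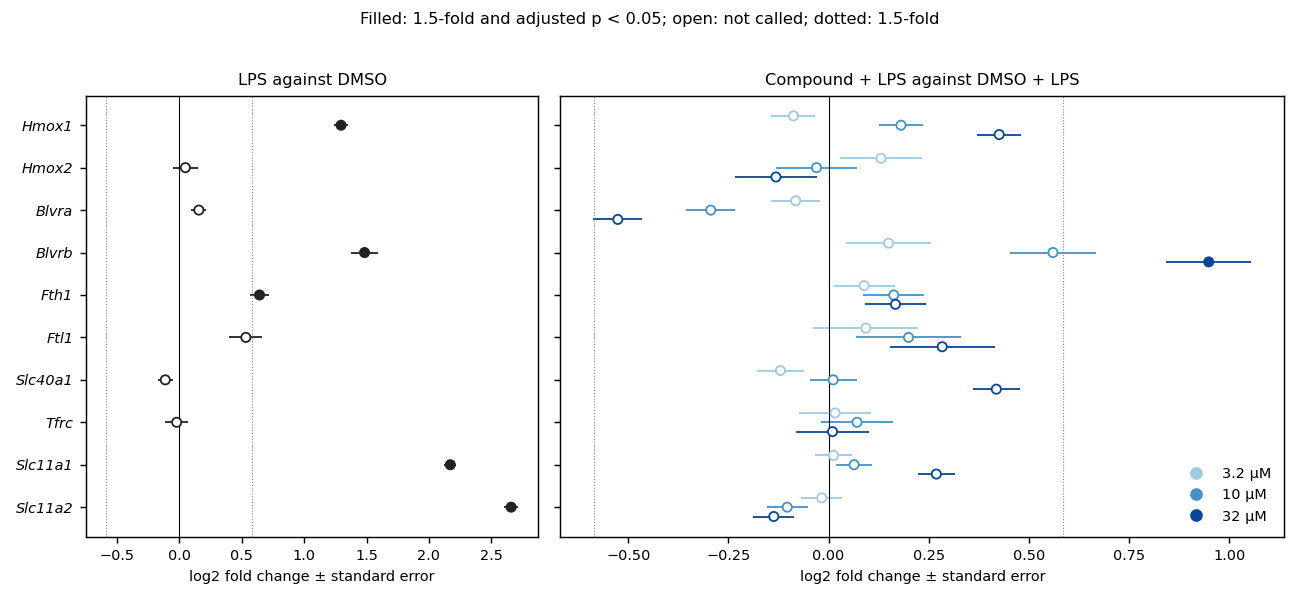
Log2 fold change with its standard error for the 10 genes, for DMSO + LPS against DMSO (left) and for each dose against DMSO + LPS (right), with dotted lines at 1.5-fold and filled points for called genes. Slc11a2 lies farthest right with LPS (2.66), and among the doses Blvrb at 32 µM (0.95) is filled while Blvra at 32 µM (−0.53) is the lowest point.

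Set against the unstimulated cells, the 32 µM libraries show where **1** and LPS together left each gene. Of the 10, 6 were called higher and 0 lower, beside 13.9% and 13.3% of all genes (27.1% in either direction), and 8 passed the adjusted p alone, beside 50.9%. Blvrb stood 5.40-fold above DMSO (log2 2.43 ± 0.112 SE, adjusted p = 9.39e-07), and Hmox1 3.30-fold (log2 1.72, adjusted p = 1.52e-07). Slc11a2 was 5.74-fold and Slc11a1 5.42-fold higher. Both ferritin genes passed the cutoffs here, Fth1 at 1.75-fold (adjusted p = 5.49e-05) and Ftl1 at 1.76-fold (adjusted p = 0.00118). Blvra was below its DMSO level by −0.37 on the log2 scale (adjusted p = 0.00130) and Slc40a1 above it by 0.30 (adjusted p = 0.00272), both under the fold cutoff. With scaling by library totals the Slc40a1 value was 0.10 (adjusted p = 0.174). The log2 fold change of the uptake receptor Tfrc had an interval of −0.22 to 0.20.

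Other genes of the pathway were drawn from fixed lists. Of 8 heme synthesis genes tested, Alas1, the first and rate-limiting enzyme outside red cells, rose with LPS (log2 0.66, adjusted p = 2.84e-06), and the list's median was −0.18. Its call held in 11 of 12 alternatives and was lost with scaling by library totals (log2 0.45). At 32 µM 0 of the 8 were called, with a median of 0.02. Alas1 was there 152 and 149 CPM against 103 CPM in both DMSO + LPS libraries, 1.46-fold higher (adjusted p = 7.55e-05) and under the cutoff.

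Of 8 tested genes of heme and hemoglobin uptake and transport, 1 was called higher at 32 µM and 0 lower, with a median log2 fold change of 0.05. It was Slc48a1 (HRG1), which moves heme from the phagolysosome to the cytosol, where heme oxygenase works. It gave 414 and 386 CPM at 32 µM, 331 and 316 CPM at 10 µM and 247 and 252 CPM at 3.2 µM, against 235 CPM in both DMSO + LPS libraries. The rise at 32 µM was 1.70-fold (log2 0.77 ± 0.052 SE, adjusted p = 6.41e-05) and was called under each of the 12 alternatives. With LPS, Slc46a1 (log2 −0.80) and the hemopexin receptor Lrp1 (log2 −0.66) of this list fell, and haptoglobin (Hp) was called higher on 16 and 3 counts against 3 and 1. The Hp call held in 3 of 10 alternatives and was lost without DMSO replicate 1 or 2 or DMSO + LPS replicate 1 (adjusted p up to 0.578). Lrp1 was called in 9 of 12, and was under 1.5-fold without DMSO replicate 2 or DMSO + LPS replicate 2 (log2 −0.58 each) and with the short-transcript score in the fit (log2 −0.51).

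Among 12 tested genes of iron uptake, storage and export outside the set, 4 rose and 2 fell with LPS, with a median of 0.05. Steap3, the endosomal ferrireductase that works with Slc11a2, fell from 60.2 and 55.0 CPM to 16.1 and 16.8 CPM (log2 −1.81, adjusted p = 2.46e-07). Hfe, which binds transferrin receptor, fell from 28.1 and 26.7 CPM to 8.70 and 8.18 CPM (log2 −1.70, adjusted p = 1.56e-06). Slc25a37 (mitoferrin 1), which carries iron into mitochondria, rose from 38.5 and 40.4 CPM to 88.9 and 86.7 CPM (log2 1.15). Steap3 and Slc11a2, which act on the same iron in the endosome, thus went opposite ways under LPS.

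Lcn2 encodes lipocalin 2, which binds iron-carrying siderophores. It had 0 and 1 counts in the DMSO libraries and 3292 and 2742 counts (57.5 and 58.4 CPM) in DMSO + LPS. With **1** it gave 50.2 and 49.5 CPM at 3.2 µM, 33.4 and 27.0 CPM at 10 µM, and 15.6 and 14.8 CPM at 32 µM. The libraries of each dose lay below those of the dose before it, as did 21.5% of all genes tested at 3.2 µM against DMSO + LPS. For the steps to 10 µM and to 32 µM the shares were 16.8% and 16.5%, each step taken alone. It was called lower at 32 µM (log2 −1.93 ± 0.115 SE, adjusted p = 3.13e-05) and at 10 µM (log2 −0.94, adjusted p = 0.00500). The call at 10 µM held in 9 of 12 alternatives, and was lost without either library of DMSO + LPS (adjusted p = 0.0625 or 0.0619) and in edgeR on the 4 libraries compared (0.0827). It was −1.10 on the log2 scale without replicate 1 at 10 µM. The ferroxidase ceruloplasmin (Cp) was called lower at 32 µM (log2 −2.73, adjusted p = 0.00296) on 7 and 6 counts against 62 and 36. At 32 µM 2 of these 12 genes, Lcn2 and Cp, were called, both lower, and the median was 0.01.

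**Figure D4:**
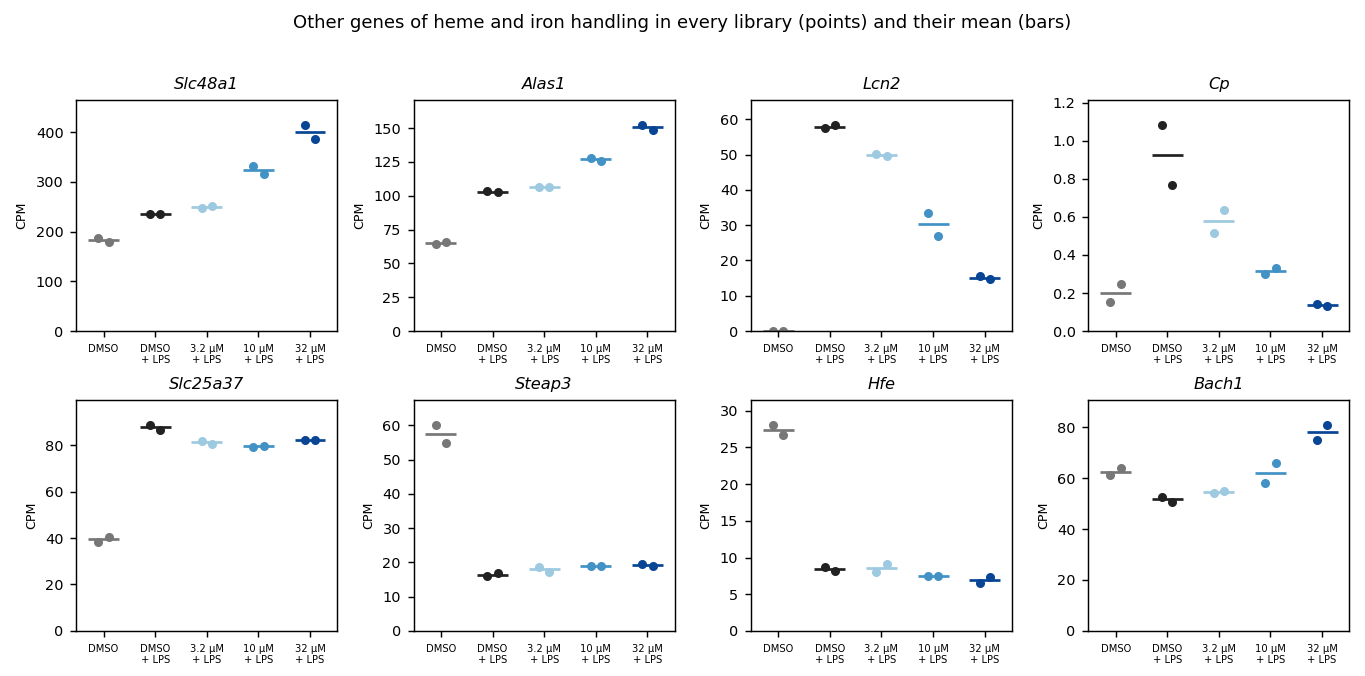
CPM of 8 further genes of heme and iron handling in each library (points) with the mean of the condition as a bar, each panel on its own axis from 0. Slc48a1 and Alas1 are highest at 32 µM, Lcn2 is at 50.2 and 49.5 CPM at 3.2 µM and 15.6 and 14.8 CPM at 32 µM, and Steap3 and Hfe are highest in DMSO.

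In the list of 5 genes termed iron sensing, the calls with LPS were of genes of hypoxia-inducible factors. Hif1a rose (log2 0.59) and Epas1 fell (log2 −1.49, adjusted p = 0.000884). The other 3 were not called with LPS, and 0 of the list were called at 32 µM. The Hif1a call was lost with scaling by library totals (log2 0.38), without DMSO replicate 1 (0.55) and without DMSO + LPS replicate 1 (0.56). The genes of the iron-regulatory proteins, Aco1 and Ireb2, gave log2 fold changes of −0.07 and −0.01 at 32 µM. Of 7 tested regulators of Hmox1 and the ferritin genes, Maff (log2 3.48), Mafg (0.98), Mafk (0.76) and Nr1d1 (1.84) rose with LPS, a median of 0.76. The Mafk call was lost with scaling by library totals (log2 0.55). Bach1, the heme-sensing repressor of Hmox1, was the 1 regulator called at 32 µM, at 75.1 and 81.0 CPM against 52.5 and 50.7 CPM (log2 0.60 ± 0.070 SE, adjusted p = 0.00116). It lay just above the cutoff and was called in 8 of 12 alternatives. Its log2 fold change was below the cutoff without replicate 2 of DMSO + LPS (0.57) or of 32 µM (0.54), without the count filter (0.58) and with the short-transcript score (0.57). Nfe2l2, which encodes Nrf2, was 1.34-fold higher at 32 µM (adjusted p = 0.00152). Mafg was at 0.22 on the log2 scale (adjusted p = 0.0467) and Mafk at −0.30 (adjusted p = 0.00358). These 3 were under the cutoff and were named after their values were seen. The median of the 7 was 0.22. Of the 8 macrophage markers, Itgam, Lyz2, Fcgr3 and Mrc1 were called lower at 32 µM (log2 −0.93 to −0.61, median of the 8 −0.46) while Cd68 and Ptprc gave 0.10 and 0.04. Csf1r was 1.32-fold higher (adjusted p = 0.00118) and Adgre1 lower by a log2 fold change of −0.31 (adjusted p = 0.00423), both under the cutoff. The Mrc1 call was lost without either DMSO + LPS library or replicate 1 at 32 µM (adjusted p = 0.0895, 0.0797 and 0.0901), and Lyz2 was under the cutoff without replicate 2 at 32 µM (log2 −0.55) or with the short-transcript score (log2 −0.58). With LPS 3 of the 8 were called higher and 3 lower. Of the markers of other cell types 3 were tested and 0 called with LPS or at any dose. The part of the marker changes in the results was not tested.

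Nrf2 acts through the antioxidant response element, and the core TGACNNNGC was searched for on both strands of 300 nt RefSeq promoters (GRCm38.p6), 250 nt before to 50 nt after the start. Of the 10 genes 7 were in the table, with 12 promoters, and Hmox1, Slc40a1 and Slc11a2 were not, so their promoters were not searched. A match was found in 1 of the 12, that of Blvra, and in 12.4% of 32851 promoters overall. The window leaves out distant enhancers.

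Across the 10 libraries, which span both the LPS step and the dose steps, the levels of several members followed each other. Pearson's r of log2 CPM was 0.99 between Hmox1 and Blvrb, 0.96 between Fth1 and Ftl1, and 0.99 between Slc11a1 and Slc11a2, while Slc40a1 and Blvra gave −0.82. These values describe libraries that share conditions and carry no test. Among 9561 genes of at least 5 CPM, those most like Hmox1 were Slc3a2 (r = 0.998), Zdhhc18 (0.998) and Hilpda (0.997). Those most like Slc40a1 were Ctps2 (0.946), Zfyve1 (0.939) and Abcc5 (0.936), so the exporter had no counterpart as close. The nearest to Blvrb were Prr13, Akr1b8 and Snx15 (0.996 to 0.998), and to Fth1 Jun, Lims2 and Pak1ip1 (0.994 to 0.995). Slc11a1 lay nearest to Procr, Impdh1 and Vps37c (0.999), and Slc11a2 to Tnip1, Plaur and Traf1 (1.000).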

How the data were processed

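RNA-seq of RAW264.7 cells was analysed in 10 libraries, 2 per condition. Per the paper's methods and the labels, the authors made directional libraries from poly(A) RNA and sequenced them on 1 lane. The submitters' processing notes name Trimmomatic, FastQC, STAR, DESeq2 and the mouse build mm10, without roles. The counting tool, the annotation and the use of strand are not given in the sources used here. The deposited file holds raw counts per Ensembl gene, not normalized by the authors. The 10 genes and the other gene lists were chosen with earlier results of these data known.

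Symbols and positions came from GENCODE M21 (GRCm38). Genes kept by filterByExpr (minimum count 10) were scaled by TMM and fitted in edgeR 4.0.16 (R 4.3.3) with 1 mean per condition, leaving 5 residual degrees of freedom and a prior of 2.76. The quasi-likelihood F test gave 7 comparisons, with Benjamini-Hochberg adjustment over all genes tested. Standard errors and 95% intervals follow from the same test and carry counting error and library spread together. All 10 members were named. Of each other list, at most 4 called genes per comparison, those with the smallest p, were named, and Nfe2l2, Aco1, Ireb2, Csf1r, Adgre1, Cd68 and Ptprc were added after their values were seen, as were the values of Alas1, Mafg and Mafk at 32 µM. The genes most like a member were those with the highest Pearson correlation. Alternatives were DESeq2's size factors, library totals, testing without the count filter or with a 5 CPM minimum on the mean, the replicate number as a block, a short-transcript score, DESeq2 1.42.0, edgeR on the 4 libraries compared, no fold cutoff, and leaving out each library. The steps were tested on simulated data.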

Additional observations from a re-analysis of the deposited data

How the results depend on the processing

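Member calls were recomputed under each alternative, in 840 results for single genes. Of these, 797 kept their direction and stayed called or not called (fold cutoff and adjusted p together, so that the adjusted p alone could cross 0.05), 3 lost the call, 2 gained it and 38 turned in direction, each for a gene not called in that comparison. The causes were not tested. The 3 lost calls were of Fth1 with LPS (log2 0.43 with library totals, 0.53 with the short-transcript score in the fit, 0.58 without DMSO replicate 2). The 2 gained were Ftl1 with LPS without DMSO replicate 1 and Blvrb at 10 µM without replicate 2 of that dose. The number of members called was thus 4 to 6 with LPS over the fits that left out a library, and 0 to 1 at 10 µM. Dropping the fold cutoff gave, by construction, 5 members at 32 µM, 1 at 10 µM and 1 between 32 and 10 µM. Where 1 library of a condition remained, its spread was taken from the other conditions.

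Scaling by library totals took the median log2 fold change of all genes from 0.0026 to −0.20 (LPS against DMSO) and from 0.019 to −0.18 (32 µM against DMSO). The called genes then went from 2072 higher and 1923 lower to 1582 and 2938 with LPS, and from 1964 and 1883 to 1490 and 2798 for 32 µM against DMSO. Hmox2 and Blvra with LPS turned to −0.16 and −0.052 there, and Fth1 between 32 and 10 µM to −0.0019 (−0.00032 under the 5 CPM minimum). Without the count filter Tfrc at 32 µM gave −0.0088, Slc40a1 at 10 µM −0.0101 and Slc11a1 at 3.2 µM −0.0016. With the short-transcript score in the fit, Hmox2 (−0.098) and Tfrc (0.11) with LPS, Tfrc at 32 µM (−0.025) and against DMSO (0.088) and Slc11a1 at 3.2 µM (−0.0060) turned.

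Over the fits that left out a library, Hmox2 ranged from −0.032 to 0.11 with LPS, −0.15 to 0.058 at 10 µM, −0.22 to 0.0198 between 32 and 10 µM, and −0.20 to 0.021 for 32 µM against DMSO. Tfrc ranged from −0.095 to 0.034 with LPS, −0.079 to 0.093 at 32 µM, −0.077 to 0.19 at 10 µM, −0.0063 to 0.039 at 3.2 µM, −0.18 to 0.070 between 32 and 10 µM, −0.082 to 0.17 between 10 and 3.2 µM, and −0.10 to 0.069 for 32 µM against DMSO. Between 32 and 10 µM the range was −0.094 to 0.12 for Fth1, −0.074 to 0.23 for Ftl1 and −0.085 to 0.018 for Slc11a2. Between 10 and 3.2 µM it was −0.040 to 0.17 for Fth1 and −0.012 to 0.20 for Ftl1, and Slc40a1 at 10 µM ranged from −0.048 to 0.070.

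The replicate differences of the 4 conditions other than DMSO + LPS correlated positively with each other (0.30 to 0.83), while those of DMSO + LPS correlated negatively with each of them (−0.42 to −0.17). The numbers were therefore not taken to pair the samples, although 8 of 10 libraries correlated best with their own number. With the replicate block the number of members called was 5 with LPS and 1 at 32 µM, and all genes called went from 3995 to 4097 and from 592 to 616. They went from 122 to 174 at 10 µM, from 187 to 225 between 32 and 10 µM and from 36 to 43 between 10 and 3.2 µM. It changed no call of a member. Of the called genes outside the 10, 34 results lost the call under an alternative, chosen after seeing the data. Intervals of Tfrc and Hmox2 rest on 2 libraries per condition. Per library, the lowest counts were 27034 for Tfrc and 1807 for Hmox2, and the part of depth in the width of these intervals was not tested. With the short-transcript score in the fit, the adjusted p was 0.0140 for Tfrc with LPS and 0.00212 for Hmox2 at 32 µM against DMSO.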
